A study of Homo sapiens with 4 samples.

Results

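The S100 proteins are small calcium-binding proteins with EF-hand motifs, and 10 of their genes are described here across NB4 cells with and without forced expression of JMJD3. They were chosen by name from the deposited gene table: S100A4, S100A6, S100A8, S100A9, S100A10, S100A11, S100A12, S100A13, S100P and S100Z, 10 of the 60662 genes listed. NB4 is a human acute promyelocytic leukemia line (subtype M3) that carries the fusion protein PML-RARα. One group of 2 libraries came from NB4 cells transduced with an empty lentiviral vector, pLVX-IRES-GFP, and the other group of 2 libraries from NB4 cells transduced with the same vector carrying wild-type JMJD3, a histone H3 lysine 27 demethylase encoded by KDM6B. By the methods the transduced lines were sorted for GFP and sorted again days later, so each group was a sorted pool with the transgene read from the vector rather than from the KDM6B locus. The labels name DMEM as the medium and the methods name RPMI-1640. The comparison asks which transcripts differ when JMJD3 is raised.

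Most S100 proteins work as dimers that expose a binding surface when calcium is bound and then contact other proteins inside the cell. Several are also released and act on receptors of neighboring cells. S100A8 and S100A9 pair to form calprotectin, an abundant protein of neutrophils and monocytes, and S100A12 is a further product of those cells. Most of the family lies side by side on the long arm of chromosome 1.

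The sums of the deposited estimated counts were 39078443 (vector 1), 40768225 (vector 2), 35176388 (JMJD3 1) and 34704909 (JMJD3 2). Each column carried 1 library-wide factor, of 1.14, 1.05, 0.993 and 0.829 in that order. Divided by it, between 92.6% and 93.5% of the nonzero values in a library lay within 0.05 of a whole number, and the totals became 34190349, 38947053, 35431670 and 41876261 reads. Read numbers below are these unscaled values. CPM is the count relative to library size after TMM scaling, FPKM is the deposited value scaled for gene length and depth, and FPKM is used to rank genes by level. The labels place vector library 1 on sequencing lane 20 and the other 3 libraries on lane 17. Nothing in the sources used here says that the replicates were separate transductions, so p-values measure only the spread between these libraries, which may be technical.

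KDM6B (ENSG00000132510) checked the labels. It was at 15.8 and 13.7 CPM in the vector libraries and at 37.9 and 44.1 CPM in the JMJD3 libraries, for a log2 change of 1.48 (standard error 0.13, adjusted p = 0.00114, edgeR quasi-likelihood test). Both JMJD3 libraries lay above both vector libraries. Reads of the vector's transcript and of the cell's own gene are counted together. Of the promyelocyte markers, MPO was the most abundant by FPKM, at 13876 and 14110 CPM in vector cells and 9379 and 9421 CPM in JMJD3 cells. ELANE held only 11 and 7 reads in vector cells and 1 and 2 reads in JMJD3 cells, so this defining gene was close to absent in all 4 libraries.

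Among the S100 genes, S100A8, S100A9 and S100A4 were lower in JMJD3 cells, and no member passed the test as higher. Of the 10 members, 8 had enough counts to be tested, and S100A12 and S100Z did not. By edgeR's quasi-likelihood test at an adjusted p under 0.05, 3 of the 8 were lower, beside 19.1% of all 15246 genes tested, and 0 were higher, beside 21.6% of all genes. With a change of at least 2-fold also asked for, 2 members were lower, beside 2.82% of all genes, and 0 were higher, beside 7.55%. The DESeq2 Wald test and limma on FPKM also called 0 members higher. With replicate numbers crossed in the block, an alternative added after seeing the data, 2 members passed as higher. The number also depended on vector library 2, as given below. The CPM values of the groups did not overlap in 5 of the 8, beside 74.4% of all genes, so such a separation was common here. The median log2 fold change was -0.01 over the 8 members and 0.04 over all genes tested. In bulk RNA, fewer cells that make a transcript and less of it per cell cannot be told apart.

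**Figure D1:**
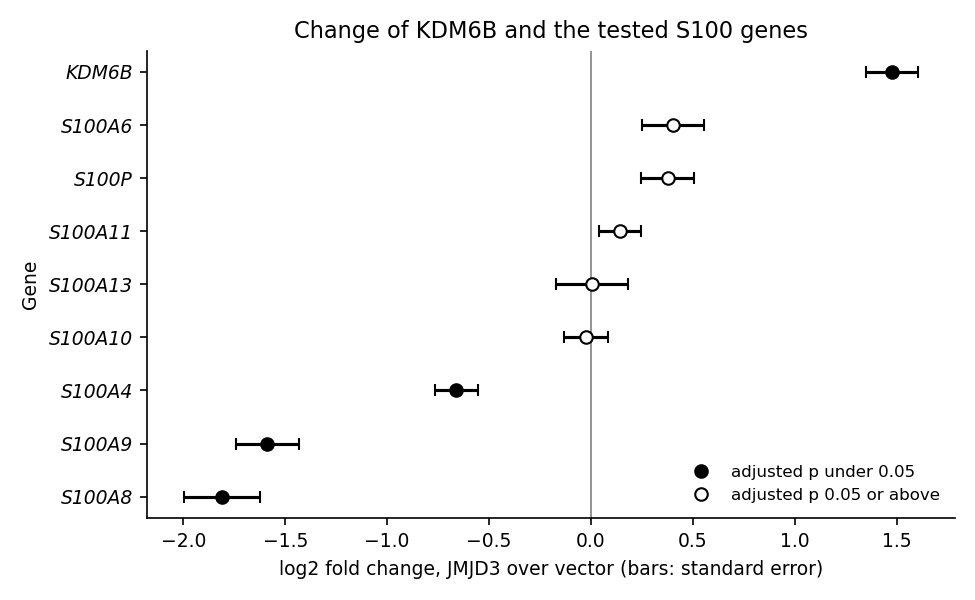
Log2 fold change (x axis, JMJD3 over vector) of KDM6B and the 8 tested S100 genes (y axis), with standard errors as bars, n = 2 libraries per group. Filled points passed an adjusted p under 0.05: KDM6B at 1.48, S100A4 at -0.66, S100A9 at -1.59 and S100A8 at -1.81.

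Among the tested members, the calprotectin genes changed most. S100A8 (ENSG00000143546, GRCh37 chr1:153362508-153363549, minus strand) held 112 and 123 reads in the vector libraries and 38 and 41 reads in the JMJD3 libraries. These are 3.45 and 3.38 CPM against 1.03 and 0.918 CPM. Both vector libraries stood well above both JMJD3 libraries, and the replicates of each group lay close together. The log2 fold change was -1.81 (standard error 0.19, adjusted p = 0.00168), a level 3.51-fold higher in vector cells.

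S100A9 (ENSG00000163220, GRCh37 chr1:153330330-153333499, plus strand) held 813 and 1157 reads in the vector libraries and 383 and 386 reads in the JMJD3 libraries. In CPM it was at 25.1 and 31.7 against 10.3 and 8.64. Again the groups did not overlap, and the vector libraries differed more from each other than the JMJD3 libraries did. The log2 fold change was -1.59 (standard error 0.16, adjusted p = 0.00146, edgeR), a level 3.0-fold higher in vector cells. The S100A8 to S100A9 ratio in FPKM was 0.162 and 0.127 in vector cells and 0.118 and 0.129 in JMJD3 cells, and these ranges overlap. By counts it was 0.138 and 0.1063 against 0.0992 and 0.1062, which nearly touch without overlapping.

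S100A12 (ENSG00000163221), which lies between S100A9 and S100A8 and whose product is released by granulocytes, was at the edge of detection. It held 3 and 2 reads in the vector libraries and 0 and 1 reads in the JMJD3 libraries. A count of 0 in JMJD3 library 1 allows up to 3 reads, or 0.0847 CPM unscaled, by counting error alone. A difference was not detectable at this depth.

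S100A4 (ENSG00000196154, GRCh37 chr1:153516089-153522612, minus strand), whose product binds the heavy chain of non-muscle myosin IIA, held 5139 and 6724 reads in the vector libraries and 4256 and 4599 reads in the JMJD3 libraries. Its CPM values were 158 and 184 against 114 and 103. All vector values lay above the JMJD3 values, with a smaller gap than for the calprotectin genes. The log2 fold change was -0.66 (standard error 0.10, adjusted p = 0.00478, edgeR), or 1.58-fold higher in vector cells.

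Within lane 17, where 1 vector library stood against 2 JMJD3 libraries and was assumed to vary like them, the log2 fold changes were -1.84 for S100A8 (adjusted p = 0.00243), -1.79 for S100A9 (adjusted p = 0.00164) and -0.81 for S100A4 (adjusted p = 0.00204, edgeR). The 3 decreases were thus as large within the lane as over all 4 libraries. The adjusted p values of the 3 genes stayed under 0.05 in all 14 alternatives, which are given with their effect in the closing section.

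The promoters of these 3 genes are shown because they moved together, with that of S100A11, which did not pass the test and is the most abundant member in JMJD3 cells. All come from RefSeq (GRCh38.p14 table) and were placed on GRCh37 by an exact match. Each runs from 250 bases before the start of the transcript to 50 bases after it. Capitals mark TATAAA (the TATA box) or GAGGAA (the core of PU.1 sites) or TTGCNNAA (a C/EBP core), each searched on both strands. The positions are chr1:153363500-153363799 (minus strand) for S100A8, chr1:153330080-153330379 (plus strand) for S100A9, chr1:153518233-153518532 (minus strand) for S100A4 and chr1:152009431-152009730 (minus strand) for S100A11.
S100A8: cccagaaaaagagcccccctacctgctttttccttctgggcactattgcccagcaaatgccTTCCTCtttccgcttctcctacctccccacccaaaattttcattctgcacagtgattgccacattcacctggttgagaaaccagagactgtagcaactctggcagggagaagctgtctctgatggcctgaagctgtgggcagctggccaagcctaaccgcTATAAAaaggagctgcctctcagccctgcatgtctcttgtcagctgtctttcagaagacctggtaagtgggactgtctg
S100A9: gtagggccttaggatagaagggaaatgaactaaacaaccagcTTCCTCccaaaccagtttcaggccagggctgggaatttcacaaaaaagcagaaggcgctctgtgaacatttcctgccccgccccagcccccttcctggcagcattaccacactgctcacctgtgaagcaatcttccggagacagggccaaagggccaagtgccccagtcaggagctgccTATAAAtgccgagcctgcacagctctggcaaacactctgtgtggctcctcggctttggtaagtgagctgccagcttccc
S100A4: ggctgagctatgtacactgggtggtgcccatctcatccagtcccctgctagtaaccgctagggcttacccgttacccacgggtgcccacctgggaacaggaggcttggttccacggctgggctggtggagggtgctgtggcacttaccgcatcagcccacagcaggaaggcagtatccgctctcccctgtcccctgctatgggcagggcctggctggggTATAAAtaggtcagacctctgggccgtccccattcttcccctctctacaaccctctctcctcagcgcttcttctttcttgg
S100A11: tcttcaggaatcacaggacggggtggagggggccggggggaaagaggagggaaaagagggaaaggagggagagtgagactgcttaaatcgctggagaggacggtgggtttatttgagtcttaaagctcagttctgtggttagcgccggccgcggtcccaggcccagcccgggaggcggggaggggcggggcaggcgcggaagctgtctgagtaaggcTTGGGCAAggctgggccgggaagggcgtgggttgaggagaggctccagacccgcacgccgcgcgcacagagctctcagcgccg

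TATAAA begins 29 bases before the start in S100A8 and in S100A9, and 31 bases before it in S100A4. Over the 10 members, all of which matched the table, 7 promoters held TATAAA at any position, against 11.5% of 35116 promoters of the same length. Counted from the start, it lay at -29 in S100A13 and -28 in S100P, but at -8 in S100A12 and -11 in S100Z. GAGGAA was found in 4 members, S100A8 and S100A9 among them on the opposite strand, against 27.9% of all promoters. TTGCNNAA was found in 2 members, S100A11 and S100A12, against 10.5%. CpG dinucleotides were few in S100A8 (2), S100A9 (5), S100A12 (1) and S100A4 (8), and many in S100A6 (31), S100A10 (32) and S100A11 (22), beside a median of 14 over all promoters. S100P had 5, S100Z 4 and S100A13 11, so a low number was not particular to the genes that fell. The S100Z promoter lies 24609 bases from the start of its canonical transcript. These matches describe letters and do not show binding.

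Of the tested members, 5 passed in neither direction. S100A6 (ENSG00000197956), or calcyclin, was at 10.6 and 13.4 CPM in vector cells and 17.2 and 14.5 CPM in JMJD3 cells. Both JMJD3 values lay above both vector values, but the log2 fold change of 0.40 (standard error 0.15) missed the threshold (adjusted p = 0.0761, edgeR). S100P (ENSG00000163993), on chromosome 4 and a partner of the membrane linker ezrin, was at 12.2 and 14.8 CPM in vector cells and 18.2 and 16.8 CPM in JMJD3 cells. Its groups did not overlap either, and its log2 fold change was 0.38 (standard error 0.13, adjusted p = 0.0574, edgeR).

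S100A11 (ENSG00000163191), calgizzarin, a partner of annexin A1, was at 131 and 154 CPM in vector cells and 163 and 152 CPM in JMJD3 cells. The groups overlapped, and the log2 fold change was 0.14 (standard error 0.10, adjusted p = 0.293, edgeR). Without vector library 1 the log2 fold changes were smaller, at 0.20 for S100A6, -0.01 for S100A11 and 0.20 for S100P. The result for these 3 genes depends on vector library 2. Without it all 3 passed as higher, with log2 fold changes of 0.58 for S100A6, 0.26 for S100A11 and 0.52 for S100P. That fit set vector library 1, from lane 20, against JMJD3 libraries from lane 17. Lane and group cannot be told apart in it, and its 1 vector library was assumed to vary like the JMJD3 libraries. Over the alternatives that left out another library, none of the 3 passed, with adjusted p between 0.0970 and 0.420 for S100A6, 0.510 and 0.888 for S100A11, and 0.122 and 0.338 for S100P. S100A6 (adjusted p = 0.00585) and S100P (0.00835) also passed with replicate numbers crossed in the block, an alternative added after seeing the data, but not with the numbers as labelled (0.0560 and 0.0700).

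S100A10 (ENSG00000197747), or p11, is the light chain of the annexin A2 complex and is unusual in not needing calcium. It was at 37.2 and 41.8 CPM in vector cells and 40.1 and 37.7 CPM in JMJD3 cells, with overlapping groups and a log2 change of -0.02 (standard error 0.11, adjusted p = 0.873, edgeR). S100A13 (ENSG00000189171), which takes part in the release of FGF1 and IL1A, was at 15.9 and 21.1 CPM against 20.8 and 16.4 CPM. Its groups overlapped as well, at a log2 change of 0.01 (standard error 0.18, adjusted p = 0.981, edgeR). The sign of the S100A10, S100A11 and S100A13 values changed with the scaling or with the libraries used, so no direction is given for them.

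The counts of S100A13 are uncertain in a further way. A long non-coding RNA gene on the same strand shares 24.2% of its exon bases, S100A1 on the opposite strand shares 10.6%, and the library kit marks no strand. Its read numbers were not whole, at 516.4, 770.6, 776.4 and 732.1, as estimated counts are when reads are divided between genes. S100A6 shares 3.81% of its exon bases with a non-coding gene at 0 reads in all libraries. The other 8 members shared no exon base with another annotated gene, and both S100A11 pseudogenes in the table were at 0 reads.

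S100Z (ENSG00000171643), on chromosome 5, held 0 and 1 reads in the vector libraries and 2 and 9 reads in the JMJD3 libraries. It had too few counts to be tested. A count of 0 in vector library 1 allows up to 0.0877 CPM unscaled.

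Per length, S100A4 and S100A11 stood far above the rest of the family. In vector cells S100A4 was at 477 and 563 FPKM and S100A11 at 401 and 479 FPKM, so the levels of this pair overlapped. In JMJD3 cells S100A11 was at 481 and 460 FPKM and S100A4 at 332 and 307 FPKM, without overlap. The FPKM ratio of S100A11 to S100A4 was 0.842 and 0.850 in vector cells and 1.45 and 1.5 in JMJD3 cells, which puts S100A11 first in the JMJD3 libraries.

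S100A9 followed next in vector cells, at 80.8 and 104 FPKM, above S100A10 at 53.5 and 63.8 FPKM. In JMJD3 cells S100A9 was at 32 and 27.5 FPKM and lay below S100A10 (60.3 and 52.7 FPKM), S100A13 (49.0 and 38.3 FPKM) and S100A6 (41.9 and 36.0 FPKM). S100A9 thus moved down in the order of levels while those 3 genes kept theirs among themselves, and S100A13 and S100A6 overlapped in JMJD3 cells but not in vector cells. S100A8 was at 13.1 and 13.2 FPKM in vector cells, inside the spread of S100P (12 and 21.0 FPKM), and at 3.78 and 3.56 FPKM in JMJD3 cells, below all other tested members. S100A12 and S100Z did not exceed 0.369 FPKM in any library.

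The FPKM of S100P needs care. The ratio of its deposited count to its FPKM, which follows the transcript length assumed, differed 1.60-fold between libraries, against at most 1.09-fold for the other tested members. In FPKM it was at 12 and 21.0 in vector cells and at 25.3 and 26.2 in JMJD3 cells, a wider gap than in CPM.

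The direction of the summed S100 level depends on the scaling. The 10 genes held 0.0374% and 0.0435% of the counts in vector cells and 0.0405% and 0.0374% in JMJD3 cells, which overlap. In TMM-scaled CPM they summed to 394 and 465 in vector cells and 384 and 350 in JMJD3 cells, lower without overlap. Of the summed FPKM they held 0.0822% and 0.0921% in vector cells and 0.102% and 0.0935% in JMJD3 cells, higher without overlap. The FPKM of all genes summed to more in the vector libraries (1344845 and 1445366) than in the JMJD3 libraries (1004715 and 1018094). The makeup of the family also differed. S100A8 and S100A9 together gave 8.51% and 8.80% of the members' FPKM in vector cells and 3.48% and 3.27% in JMJD3 cells. S100A4 gave 43.1% and 42.3% against 32.4% and 32.3%, and S100A11 36.3% and 36.0% against 46.9% and 48.3%. These shares are descriptions without a test.

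Replicates differed in a way that the members shared. Of the 8 tested members, 7 were higher in vector library 2 than in vector library 1, beside 49.7% of all genes tested, and 8 were higher in JMJD3 library 1 than in JMJD3 library 2, beside 50.3%. The median log2 ratios of CPM + 0.5 were 0.25 and 0.13 for the members and -0.00 and 0.00 over all genes. S100A8 was the exception, at a log2 ratio of -0.03 between the vector libraries. Tested genes of at most 1500 exon bases, a limit chosen after the values were seen, also leaned this way, with 64.5% higher in vector library 2 and 60.0% higher in JMJD3 library 1. All tested members but S100A13 are below that limit. Between the groups, these short genes had a median log2 fold change of -0.06, with 11.96% higher and 17.1% lower, beside 0.04, 21.6% and 19.1% over all genes. How far the replicate difference enters the group comparison was not tested.

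**Figure D2:**
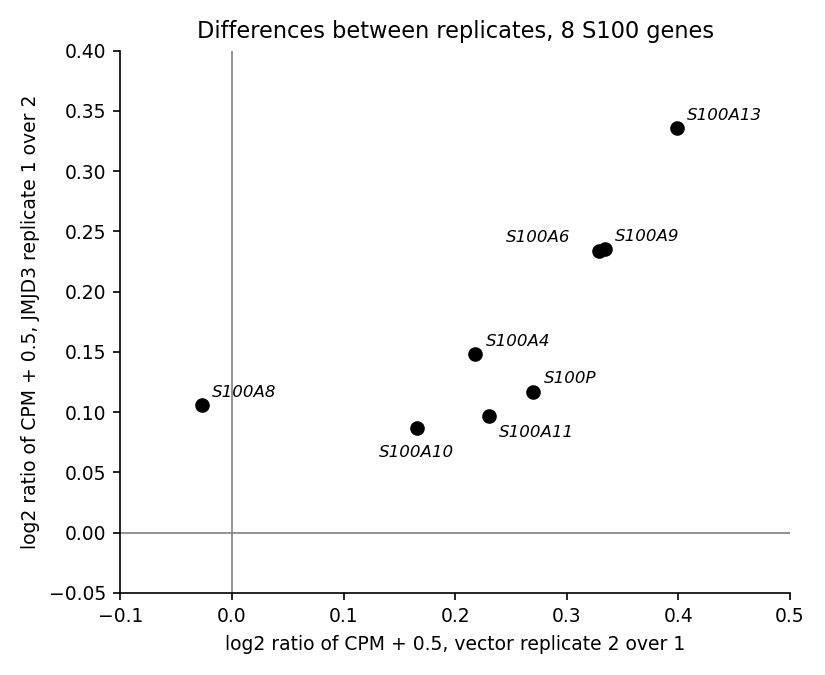
Log2 ratio of CPM + 0.5 between vector replicates 2 and 1 (x axis) and between JMJD3 replicates 1 and 2 (y axis), 1 point per tested S100 gene. All points lie above 0 on the y axis and all but S100A8, at -0.03, lie above 0 on the x axis.

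On chromosome 1 of GRCh37, 8 of the 10 members lie between S100A10 and S100A1, a stretch from 151955391 to 153604515 that holds 61 protein-coding genes of the table. Of these, 52 had too few counts to be tested, among them the epidermal genes that separate S100A11 from S100A9. All 9 tested genes were S100 genes: 7 members, S100A16 and S100A1. Genes that passed and genes that did not alternate along it: the calprotectin pair, S100A4 and S100A16 were lower, S100A6 lies between S100A8 and S100A4 and did not pass, and S100A1 at the far end was higher.

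The rest of the family was sparse. Of 10 other S100 genes 3 were tested, 2 lower and 1 higher by edgeR, beside 19.1% and 21.6% of all genes, with a median log2 fold change of -0.78 beside 0.04 over all genes. S100A16 held 31 and 55 reads in vector cells and 8 and 16 reads in JMJD3 cells, without overlap, a log2 change of -2.11 (standard error 0.40, adjusted p = 0.00835). The filter of at least 10 counts in every library left it untested, and it passed in the other alternatives. S100B, known from glia, was at 3.40 and 4.79 CPM against 2.16 and 2.62 CPM, with a log2 change of -0.78 (standard error 0.22, adjusted p = 0.0304, edgeR). That call was lost with limma on log2(FPKM + 1) (adjusted p = 0.0542), with no filter (0.0988), without vector library 2 (0.0794) and without JMJD3 library 1 (0.0955). S100A1, a calcium sensor best known from muscle, was at 4.15 and 4.30 CPM against 6.62 and 5.75 CPM, with a log2 change of 0.55 (standard error 0.14, adjusted p = 0.0234, edgeR). It overlaps S100A13, and its call was lost with the DESeq2 Wald test (adjusted p = 0.0872), with no filter (0.0573) and without either JMJD3 library (0.217 and 0.0591). S100A7, S100A7A and S100G were at 0 reads in all 4 libraries.

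Among receptors reported for released S100 proteins, 9 of 10 were tested, 1 was lower and 1 higher, beside 19.1% and 21.6% of all genes, and the median log2 fold change was -0.06. CD36, a scavenger receptor reported to bind S100A8 and S100A9, held 677 and 658 reads in vector cells and 127 and 171 reads in JMJD3 cells. The groups lay far apart, at a log2 change of -2.43 (standard error 0.14, adjusted p = 0.000375, edgeR). CD33, a sialic acid-binding receptor of myeloid cells that S100A9 can bind, was at 65.1 and 68.7 CPM against 83.5 and 79.7 CPM, a log2 change of 0.29 (standard error 0.09, adjusted p = 0.0380, edgeR). This small difference did not pass with DESeq2 size factors (adjusted p = 0.0675), Wald testing in DESeq2 (0.0956), limma with log2(FPKM + 1) or log2(FPKM + 0.1) (0.627 and 0.636), no filter (0.0756), the replicate block (0.138) or either JMJD3 library left out (0.409 and 0.290).

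AGER, the receptor RAGE, had a log2 fold change of -0.42 (adjusted p = 0.0520, edgeR) and passed with DESeq2 size factors (adjusted p = 0.0448), without vector library 1 (0.0149) and with the crossed block (0.0222). TLR4 was at -0.25 (adjusted p = 0.251), and its coreceptor LY96 held at most 5 reads in a library. The immunoglobulin-family receptors BSG (-0.21), MCAM (0.22), NPTN (-0.06) and ALCAM (0.32) did not pass. Without vector library 1, BSG (adjusted p = 0.00660) and ALCAM (0.00303) passed, and without vector library 2, MCAM (0.0302) and NPTN (0.0430). MCAM also passed with limma on log2(FPKM + 1) and log2(FPKM + 0.1) (0.0482 and 0.0453), and BSG (0.00924) and ALCAM (0.00674) with the crossed block. NPTN changed sign without vector library 1 (0.08).

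Of 17 genes for intracellular partners 15 were tested, 5 higher and 4 lower by edgeR, beside 21.6% and 19.1% of all genes, with a median log2 fold change of 0.16. ANXA2, the partner of S100A10, was at 25.7 and 27.4 CPM in vector cells and 44 and 38.6 CPM in JMJD3 cells, for a log2 change of 0.63 (standard error 0.11, adjusted p = 0.00646). AHNAK, a large scaffold of that complex, had a log2 change of 0.81 (standard error 0.16, adjusted p = 0.00984), and S100PBP, an S100P-binding protein, one of 0.57 (standard error 0.11, adjusted p = 0.00770). ANXA6, which can bind S100A6, was higher at 0.47 and MYH9, the myosin that S100A4 binds, at 0.25. ANXA11 (-0.39) and ANXA5 (-0.26) were lower, as were SUGT1 (-0.34) and CACYBP (-0.24), both partners of S100A6.

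None of these 9 calls was kept in all 14 alternatives. ANXA2 lost its call without JMJD3 library 1 (adjusted p = 0.0723), S100PBP without JMJD3 library 2 (0.0966), and AHNAK with limma on either FPKM scale (0.401 and 0.383) and no filter (0.0599). ANXA6, ANXA11, ANXA5, SUGT1, CACYBP and MYH9 lost theirs without either JMJD3 library. The replicate block also ended the calls of ANXA5 (0.187), SUGT1 (0.0594), CACYBP (0.172) and MYH9 (0.135), and MYH9 kept its call in only 5 of the 14. Among the other tested partners, ANXA1 of S100A11, PPFIBP1 of S100A4, EZR and IQGAP1 of S100P, and the oxidase subunit CYBB, which calprotectin contacts, did not pass, with log2 fold changes between -0.14 and 0.21 for these genes. Leaving out vector library 1 brought ANXA1 (adjusted p = 0.0320), EZR (0.0480) and IQGAP1 (0.00702) past the threshold, and leaving out vector library 2 brought PPFIBP1 (0.0261). IQGAP1 also passed with the crossed block (0.0292). PPFIBP1, IQGAP1 and CYBB changed sign under some alternatives. FGF1 and IL1A, which leave the cell with S100A13, were at 0 to 1 and 0 to 4 reads.

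Of 8 transcription factors reported to act on the calprotectin genes and S100A12, 3 were higher and 2 lower, beside 21.6% and 19.1% of all genes, with a median log2 fold change of 0.05. SPI1, which encodes PU.1, was at -0.29 and did not pass (adjusted p = 0.0711, edgeR). The C/EBP factors CEBPE (0.72, standard error 0.12, adjusted p = 0.00515), CEBPD (0.67, standard error 0.11, adjusted p = 0.00575) and CEBPB (0.65, standard error 0.14, adjusted p = 0.0114) were higher by edgeR. CEBPE was at 71.2 and 87.8 CPM in vector cells and 136 and 126 CPM in JMJD3 cells. CEBPA, the early granulocytic factor of this family, was lower, at 219 and 256 CPM against 175 and 155 CPM, a log2 change of -0.52 (standard error 0.11, adjusted p = 0.0106). RARA, named here after its values were seen, was lower at -0.42 (adjusted p = 0.0210), and its gene reads can include those of the fusion. The calls of CEBPE and CEBPD were kept in all 14 alternatives. CEBPB lost its call without JMJD3 library 1 (adjusted p = 0.125), CEBPA without JMJD3 library 2 (0.0801), and RARA with limma on either FPKM scale (0.0539 and 0.0518), no filter (0.0632) and without either JMJD3 library (0.252 and 0.141).

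All 23 other EF-hand genes were tested, 3 were higher and 6 lower, beside 21.6% and 19.1% of all genes, none by 2-fold, beside 7.55% and 2.82%, and the median log2 fold change was -0.02. RCN1, of the endoplasmic reticulum, was lower at -0.55 (adjusted p = 0.00383, edgeR) in the main comparison and in all 14 alternatives. CIB1 (-0.58) and sorcin, SRI (-0.47), were lower and the calpain CAPN2 (0.54) was higher, and each lost its call without JMJD3 library 2 (adjusted p = 0.0832, 0.290 and 0.0826). CIB1 (0.0504) and SRI (0.0558) also lost theirs with no filter, SRI (0.0623) and CAPN2 (0.0730) without JMJD3 library 1, and CAPN2 with limma on log2(FPKM + 1) and log2(FPKM + 0.1) (0.0581 and 0.0523).

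Mature neutrophils and monocytes are the cells in which calprotectin abounds. Of 16 of their genes 12 were tested, 4 were higher and 0 lower by edgeR, beside 21.6% and 19.1% of all genes, and the median log2 fold change was 0.19. ITGAX, the integrin CD11c, was at 8.55 and 8.36 CPM in vector cells and 27.3 and 28.2 CPM in JMJD3 cells, for a log2 change of 1.71 (standard error 0.10, adjusted p = 0.000432). ITGAM (CD11b) had a log2 fold change of 0.59 (adjusted p = 0.010) and FCN1 one of 0.43 (adjusted p = 0.0182), and both lost the call with limma on either FPKM scale (0.129 and 0.119 for ITGAM, 0.133 and 0.131 for FCN1). ITGAM also lost it without JMJD3 library 2 (0.0551), and FCN1 with no filter (0.0518) and without either JMJD3 library (0.110 and 0.277). CAMP, at 2 and 4 reads against 15 and 13 reads, had a log2 fold change of 2.09 (adjusted p = 0.0253) that did not pass with the DESeq2 Wald test (0.145), with no filter (0.0647), without vector library 1 (0.0681) or without either JMJD3 library (0.210 and 0.0776). The filter of at least 10 counts in every library left CAMP untested. The other 8 tested genes of the list did not pass in the main comparison.

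Of 6 promyelocyte markers 5 were tested, 4 were lower (CTSG at -3.91, PRTN3 at -1.81, MPO at -0.57 and AZU1 at -0.56) and CD33 was higher, beside 19.1% lower and 21.6% higher over all genes. AZU1 lost its call with no filter (adjusted p = 0.0574). Their summed level was 16577 and 17373 CPM in vector cells and 10474 and 10436 CPM in JMJD3 cells. Of 5 monocyte markers 3 were tested and CSF1R alone was higher (1.56, adjusted p = 0.00140, edgeR), at 4.94 and 3.85 CPM against 12.9 and 12.9 CPM. It was the most abundant of the list by FPKM in each JMJD3 library, the list summed to 7.23 and 5.69 CPM against 15.4 and 15.4 CPM, CD14 held 8 to 13 reads, and FCGR3A was at 0. The part of these markers in the S100 decreases was not tested.

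Of 5 T cell markers 2 were tested and both were higher, TRAC (1.99) and CD2 (1.38), beside 21.6% of all genes and 7.55% by at least 2-fold. The list summed to 13.1 and 14.8 CPM in vector cells and 50.4 and 46.6 CPM in JMJD3 cells, with TRAC the most abundant by FPKM, while CD3D held 8 to 10 reads and CD3E and CD3G at most 2 and 4 reads in a library. Of 4 B cell markers CD79A, the most abundant by FPKM, was higher (0.83), the sums were 10.4 and 11.6 CPM against 17.6 and 15.9 CPM, and MS4A1 was at 0. Of 4 megakaryocyte markers ITGA2B was higher (1.43), though not with limma on FPKM (adjusted p = 0.0858 and 0.0748), and PF4 and GP9 were at 0. The erythroid list summed to at most 0.108 CPM, the keratinocyte list to at most 0.0540 CPM and the fibroblast list to at most 0.183 CPM, and HBB, KRT5, KRT14, COL1A2 and COL3A1 were at 0 reads.

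Genes with profiles most like those of the calprotectin genes were sought among tested genes of at least 10 CPM on average, by the distance between centred log2(CPM + 0.5) values over the 4 libraries. For S100A8 the nearest of 8934 genes were ASNS, an asparagine synthetase (distance 0.107), CENPV (0.135) and LANCL2 (0.144), and S100A9 was number 31 (0.297). The added 0.5 shrinks the profile of S100A8, a gene of about 1 to 3 CPM. For S100A9 they were CCND2, or cyclin D2 (0.106), PPAN-P2RY11, a read-through of adjacent genes that shares their exons (0.135), and GAL, galanin (0.150). CCND2 was at 158 and 193 CPM in vector cells and 68.5 and 60.0 CPM in JMJD3 cells, for a log2 change of -1.45 (standard error 0.12, adjusted p = 0.00107, edgeR). With 2 groups of 2 libraries, such likeness is mainly a like difference between the groups.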

How the data were processed

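RNA of 2 vector and 2 JMJD3 libraries of NB4 cells was sequenced after poly(A) selection. The deposited table gives, for every gene, estimated counts and FPKM in each library beside the authors' own fold changes, p-values, false discovery rates and calls, which were not used. How the table was made is unclear: the methods name STAR, hg19, HTSeq-count and DESeq2, the submitters' processing notes name CASAVA 1.8, TopHat2 2.0.4, RSEM, edgeR and GRCh38, and the series text names BWA and Cufflinks. The deposited estimated counts carry 1 factor per library (between 0.540% and 0.763% of nonzero values were whole) and were rounded to whole numbers here.

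Genes passing edgeR's filterByExpr (15246 of 60662) were tested after TMM scaling by quasi-likelihood in edgeR 4.0.16 (glmQLFit, glmQLFTest, R 4.3.3, tests with 2 sides), 4 libraries in 1 fit with no covariate. P-values were adjusted by Benjamini-Hochberg over all genes tested. The standard error is the size of the log2 fold change divided by the square root of F, and CPM values use TMM-scaled library sizes. A count of 0 allows up to 3 reads, which covers counting error only. Alternatives were DESeq2 1.42.0 size factors and Wald test, upper-quartile scaling, limma 3.58.1 on FPKM with 1 or 0.1 added before log2, no filter, at least 10 counts in every library, a replicate block and each library left out. Removing the library factors and crossing the block were added after seeing the data. Positions come from GENCODE 44 on GRCh37, matched by gene identifier (93.9% of identifiers, all 10 members), and promoters from RefSeq.

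Besides the 10 members and KDM6B, the genes followed through the alternatives are in each list the 4 with the largest change at an adjusted p under 0.05, direct partners of members, and the 3 genes nearest to S100A8 and S100A9 in profile. Other list genes are named only for their level or as not passing, and RARA and CD33 besides. The members and lists were chosen with earlier results of these data known.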

Additional observations from a re-analysis of the deposited data

How the results depend on the processing

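The decreases of S100A8, S100A9 and S100A4 kept their direction and an adjusted p under 0.05 in all 14 alternatives. Of these, 2 were chosen after seeing the data (library factors removed, and a block with crossed replicate numbers). Of the 46 named genes that passed the test, 22 did so in all 14. The counts over all genes were less steady. All genes higher in JMJD3 numbered 3292, against 2046 with limma on log2(FPKM + 1), 2032 on log2(FPKM + 0.1), 1893 with no filter and 1890 to 4248 with 1 library left out. All genes lower in JMJD3 numbered 2906, against 1776 with no filter and 1110 to 4212 with 1 library left out. All genes higher in JMJD3 by 2-fold or more numbered 1151, against 293 with limma on log2(FPKM + 1), and all genes lower in JMJD3 by 2-fold or more 430, against 168. S100 members higher in JMJD3 numbered 0, against 0 to 3 with 1 library left out (3 without vector library 2) and 2 with the crossed block.

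Small changes turned sign. S100A10 (-0.02) was at 0.01281 with upper-quartile scaling and -0.1485 to 0.05757 with 1 library left out, and S100A11 (0.14) at -0.01204 to 0.2575. S100A13 (0.01) was at -0.03072 with DESeq2 size factors, -0.03071 with the DESeq2 Wald test, -0.09204 and -0.09387 with limma, and -0.2282 to 0.2198 with 1 library left out. These members have no set direction. NPTN (-0.06) ranged from -0.2291 to 0.07567 over the libraries left out. PPFIBP1 (-0.12) was at 0.2072 and 0.2439 with limma, with a range of -0.3194 to 0.06611, and IQGAP1 (0.21) at -0.2283 and -0.2319, with a range of -0.04305 to 0.4756. CYBB (0.03) was at -0.001609 with DESeq2 size factors and with the Wald test, with a range of -0.1005 to 0.1247. The mean share of the members was 0.04046% of counts in vector cells and 0.03893% in JMJD3 cells, against 0.0871% and 0.0978% of FPKM. The mean S100A8 to S100A9 ratio was 0.122 in vector cells and 0.1027 in JMJD3 cells by counts, against 0.145 and 0.124 by FPKM, and the groups overlapped only by FPKM.

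With 2 libraries per group, not stated to be separate transductions, p-values describe these libraries only. Vector library 1 alone came from lane 20, so lane and group cannot be told apart in the fit without vector library 2. S100 protein was not measured, and bulk RNA does not separate cell makeup from level per cell. Which pipeline and genome build made the table is unclear. The causes of the differences were not tested.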
